A study of Mus musculus with 9 samples.

Results

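The mRNAs of the proteasome subunits and their regulators were measured in 3 immortalized mouse striatal cell lines, a control line and 2 lines with expanded huntingtin. The genes were taken by symbol, as every row of the count table whose name starts with Psma, Psmb, Psmc, Psmd, Psme, Psmf or Psmg and a digit. The immunoproteasome subunits Psmb8, Psmb9 and Psmb10 and pseudogenes were left out. This gave 47 of the 36410 genes listed, of which 46 passed the filter on low counts, as did 13508 genes in all. The remaining gene, Psma8, a subunit made in testis, had 0 counts in 7 libraries and 1 count in each of HD-homo replicates 2 and 3. By role the 47 genes are 14 subunits of the 20S core, 17 subunits of the 19S regulatory particle with a Psm symbol, 2 tissue-restricted core subunits, 7 assembly chaperones, 5 activators, the inhibitor Psmf1 and Psmc3ip. The symbol rule misses Adrm1, a ubiquitin receptor of the base, and Sem1, a small lid subunit, which are given with the pathway genes, so that counts and sums over subunits leave both out. Psmc3ip shares the start of its symbol with a subunit but encodes a cofactor of meiotic recombination.

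The proteasome degrades proteins that carry chains of ubiquitin. Its 20S core is a barrel whose outer rings, of alpha subunits, control entry and whose inner rings, of beta subunits, hold the proteolytic sites. The 19S regulatory particle binds the barrel's ends: its lid and ubiquitin receptors take up and deubiquitinate the substrate, and its base, with a ring of ATPases, unfolds it. In Huntington disease, ubiquitin-positive aggregates of mutant huntingtin form in the striatum, and the capacity of the proteasome to clear polyglutamine proteins has long been a question in the field.

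The lines are named control (STHdhQ7/Q7), HD-het (STHdhQ7/Q111) and HD-homo (STHdhQ111/Q111). They carry knock-in huntingtin exon 1 with 7 repeats on both alleles, with 7 on the first allele and 111 on the other, or with 111 on both, in cells of C57/BL6 strain by the labels, derived from mouse embryos, and the labels name no treatment. With 1 line for each genotype, an effect of the allele and a trait of the line cannot be told apart. The labels do not say whether the 3 libraries of a line came from separate cultures, so that p values measure the spread between these libraries. Poly(A) RNA was sequenced, to a depth of 29507665 to 41197931 gene counts per library. Levels are given as normalized counts per megaread (CPM), with the SD of 3 libraries. Lines were compared with edgeR's quasi-likelihood test, two-sided, fitted to all 9 libraries, with Benjamini-Hochberg adjustment over all 13508 genes and a threshold of 0.05. Log2 fold changes are followed by their standard error (SE). All pairs of replicate libraries differed by more than counting noise. Of 8 markers of medium spiny neurons, the main cell type of the striatum, 3 had at most 3 counts in every library, among them Drd1 with 0 in all. Of the 4 that passed the filter, Foxp1 was well expressed, at 93.8, 114 and 168 CPM in the mean of control, HD-het and HD-homo libraries, and the others had means under 1 CPM. Of 5 general neuronal markers, Map2 and Tubb3 were expressed and Rbfox3, Snap25 and Syt1 had at most 3 counts in every library. The lines are called by their names here and not by a neuronal type.

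Promoter sequences were read for the genes that RefSeq places on GRCm38.p6, from 250 bases before to 50 bases after the start site. Of the 47 proteasome genes, 39 were in that table, with 42 promoters. The search was for the core of the antioxidant response element (TGACNNNGC), which the transcription factor Nfe2l1 (Nrf1), known to drive proteasome gene expression, can bind, and for the ETS core (TTCCGG), the GC box core (CCCGCC) and the CCAAT box (CCAAT), on both strands. The antioxidant response element core was found at 6 of the 39 genes (15.4%), against 14% of all 27025 genes in the table and 17% of the tested ones. The ETS core was found at 21 genes (53.8%), against 16.7% and 30.5%. The GC box core was found at 27 genes (69.2%), against 37.9% and 67.5%, and the CCAAT box at 14 genes (35.9%), against 41.1% and 43.2%. A match is a run of letters and not evidence of binding. All 6 matches to the antioxidant response element core are printed because Nfe2l1 is taken up again beside the results, with the match in capitals, in either orientation, written 5′ to 3′ on the strand of the gene. The match of Psmd9 overlaps a GC box core.
Psmb5, chr14:54618024-54618052, minus strand: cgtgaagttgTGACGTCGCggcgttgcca
Psmb6, chr11:70525338-70525366, plus strand: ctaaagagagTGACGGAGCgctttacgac
Psmc6, chr14:45329587-45329615, plus strand: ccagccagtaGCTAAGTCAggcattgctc
Psmd9, chr5:123228149-123228177, plus strand: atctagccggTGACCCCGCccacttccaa
Psmd12, chr11:107479278-107479299, plus strand: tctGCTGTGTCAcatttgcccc
Psme4, chr11:30771758-30771786, plus strand: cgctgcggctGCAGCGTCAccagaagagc
An ETS core match is shown for each of 4 genes whose changes are described in the results, Psma5, Psme3, Psmg1 and Psmd11. The match is in capitals. Psme3 and Psmd11 hold further ETS core matches that are not printed.
Psma5, chr3:108256762-108256787, plus strand: gcaaacctagTTCCGGctgccaccga
Psme3, chr11:101316096-101316121, plus strand: ggcacaaggcCCGGAAgctccgacag
Psmg1, chr16:95991014-95991039, minus strand: tcgcggcggaCCGGAAgctcttaggt
Psmd11, chr11:80428595-80428620, plus strand: agggcgggtcTTCCGGgtgtgtgttt

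In HD-het cells most of the proteasome genes that differed from control cells were lower. Of the 46 tested genes, 25 fell, 6 rose and 15 did not pass the threshold, where of all tested genes 65.1% passed the threshold, 31.4% lower and 33.8% higher. The median log2 fold change of the 46 was -0.21, against 0.03 over all tested genes, and the changes were small, between -0.77 for Psma5 and 0.39 for Psme2b. None of the 46 changed by a log2 fold change of 1 or more, as 19.4% of all tested genes did. The libraries of both lines did not overlap for 35 of the 46, where this held for 74% of all tested genes. In these bulk samples, fewer cells that express a gene and less RNA per cell cannot be told apart.

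In HD-homo cells the balance against control cells was the other way and the changes were again small. There, 18 genes rose, 7 fell and 21 did not pass the threshold, where of all tested genes 58.6% passed it, 29.6% higher and 28.9% lower, and 29 of the 46 did not overlap, against 65.3% of all genes. The median log2 fold change was 0.10, against 0.01 over all tested genes. A log2 fold change of at least 1 was reached by Psme2 and Psme2b (4.35% of the 46), against 19.8% of all tested genes. Both comparisons use the same 3 control libraries, so their values are given side by side and are not independent.

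Compared directly, HD-homo cells were above HD-het cells for 32 of the 46 genes, below for Psmd8 alone, and not past the threshold for 13. Of all tested genes 71.6% passed it, 36% higher and 35.6% lower, and the libraries did not overlap for 33 of the 46, against 72.8% of all genes. The median log2 fold change was 0.36, against 0.0017 over all tested genes. The mean of HD-het cells was the lowest of the 3 lines for 31 of the 46 genes (67.4%), against 35.9% of all tested genes. The mean of HD-homo cells was the highest for 29 (63.0%), against 34.9%, and both held for 22 (47.8%), against 20.8%. In opposite directions against control cells, 6 of the 46 (13%) passed the threshold in both HD lines, against 14.5% of all tested genes.

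**Figure D1:**
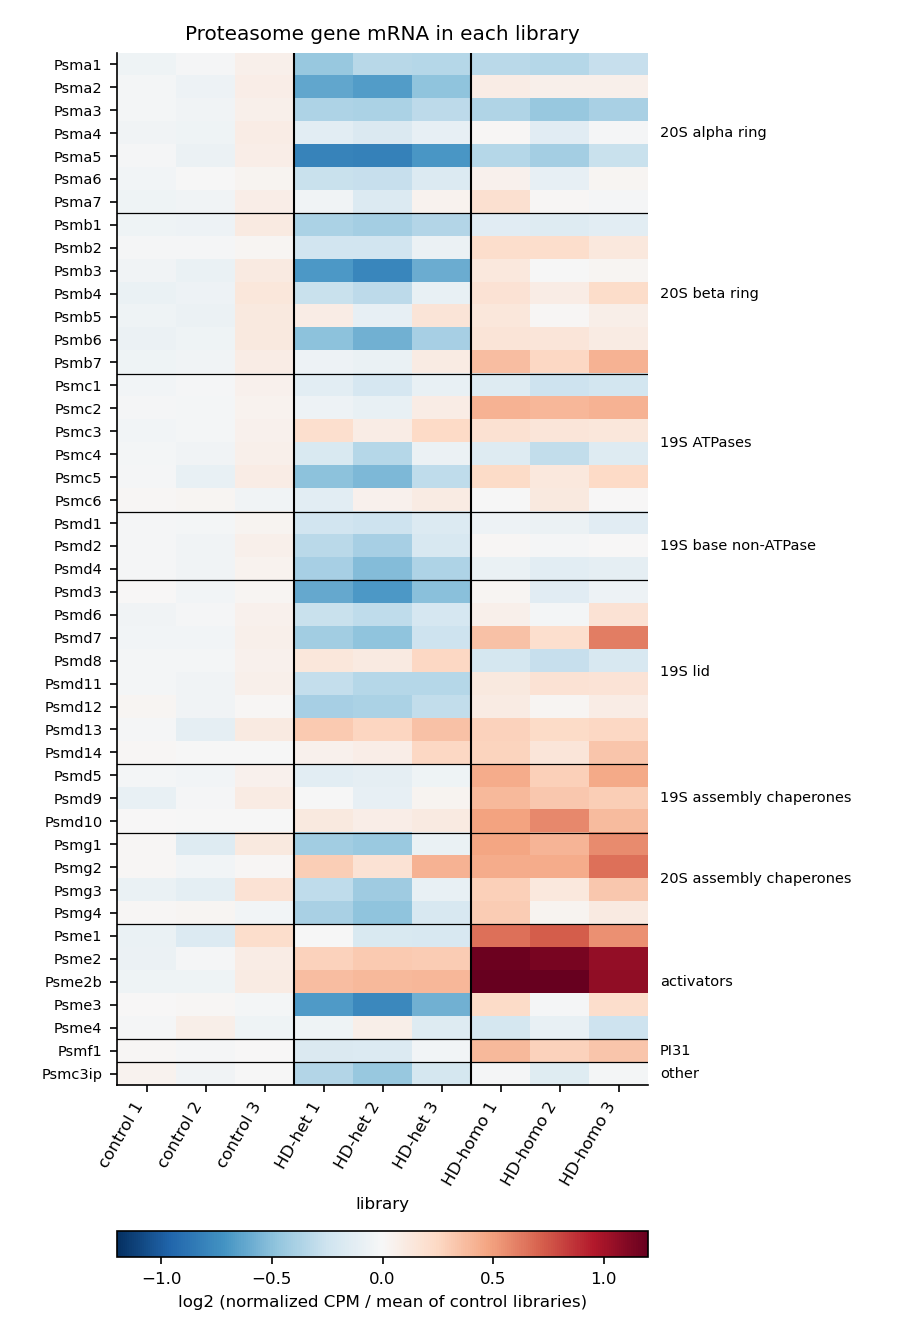
Normalized CPM of 45 proteasome genes (rows, by role) in the 9 libraries (columns), as log2 of the ratio to the mean of the 3 control libraries. Psma8 and Psmb11, at or close to 0, are left out. Blue marks the lower values seen in most core and 19S genes of the HD-het libraries, and the darkest red marks Psme2 and Psme2b in the HD-homo libraries.

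**Figure D2:**
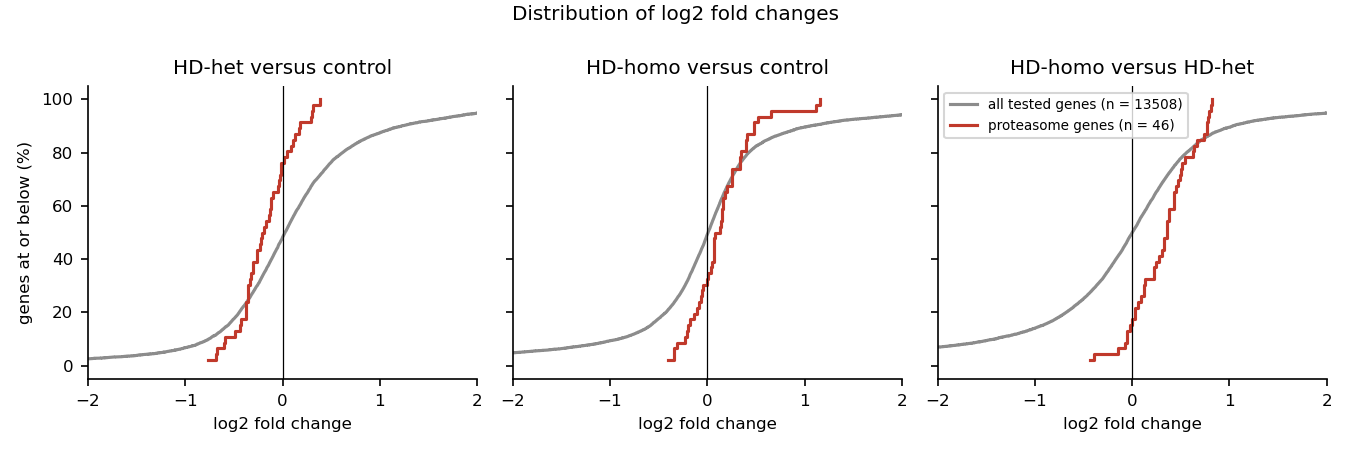
Cumulative share (percent, y axis) of the 46 tested proteasome genes (red) and of all 13508 tested genes (grey) at or below each log2 fold change (x axis, shown from -2 to 2) in the 3 comparisons. The red curve lies to the left of the grey one at 0 for HD-het against control and to the right for HD-homo against HD-het, and it is steeper in each panel.

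The 31 genes here that encode subunits of the 26S proteasome, the core capped by the regulatory particle, were summed, without Adrm1 and Sem1. The sum was 6099, 6038 and 6471 CPM in the control libraries, 5179, 5027 and 5559 CPM in the HD-het libraries, and 6449, 6151 and 6424 CPM in the HD-homo libraries. The HD-het libraries lay below all others, and the control and HD-homo libraries overlapped. The means were 6203 ± 234.5, 5255 ± 273.8 and 6341 ± 165.5 CPM (SD, n = 3), a difference from control cells of -15.3% in HD-het and 2.22% in HD-homo cells. Replicate 3 had the highest sum in both control and HD-het cells. Of these 31 genes, 21 fell and 3 rose in HD-het cells, where 31.4% of all tested genes were lower and 33.8% higher. In HD-homo cells 6 of the 31 fell and 9 rose, against 28.9% and 29.6% of all tested genes. The rises there were near the share of all genes. Of the 15 tested proteasome genes outside the 26S subunits, 9 rose and 1 fell in HD-homo cells. The same shares over all genes apply to the smaller groups below. Among the 22 subunits whose transcripts share under 5% of their 50-base words with another gene, 14 fell and 3 rose in HD-het cells. In HD-homo cells 3 of these 22 fell and 8 rose. The 22 were chosen by shared words alone and include genes that overlap another gene, such as Psma2, Psmb7 and Psmd13.

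**Figure D3:**
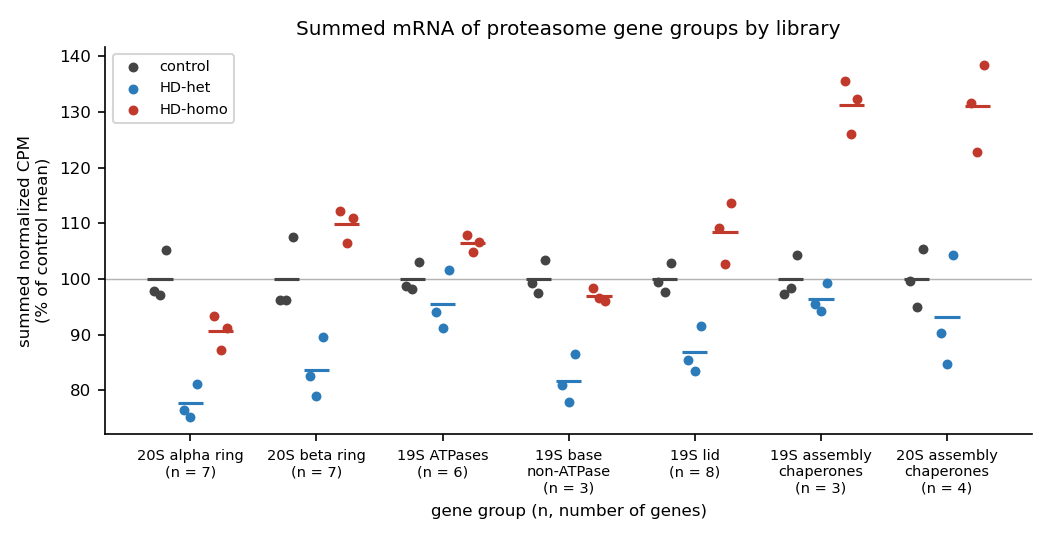
Summed normalized CPM of 7 groups of proteasome genes in each library (points), as percent of the control mean (line at 100; the y axis does not start at 0), with short bars for the means of 3 libraries. The HD-het libraries lie below all control libraries for the alpha ring, beta ring, base non-ATPase and lid groups, and the HD-homo libraries lie above all others for both groups of assembly chaperones.

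The 7 alpha ring subunits form the gate of the core. In HD-het cells 5 of them fell (Psma1, Psma2, Psma3, Psma5 and Psma6), and in HD-homo cells 3 fell (Psma1, Psma3 and Psma5) and 0 rose. Psma5, on chr3:108256926-108279974, showed the largest decrease of all proteasome genes in HD-het cells. It was at 206, 198 and 220.2 CPM in the control libraries, at 119, 118 and 128 CPM in the HD-het libraries and at 164, 156 and 173 CPM in the HD-homo libraries. There was no overlap, and HD-het cells were lowest and control cells highest. Its log2 fold change was -0.77 (SE 0.063, edgeR adjusted p = 1.34e-06) in HD-het cells and -0.34 (SE 0.062, edgeR adjusted p = 0.000758) in HD-homo cells. Of the 50-base words of Psma5, 54.5% also occur in other genes, so its counts are uncertain, and an overlapping antisense gene (1700010K24Rik) could share reads if strand was not used in counting. Psma1 has no such shared words and no overlapping gene. It measured 153, 157 and 165 CPM in control, 116, 125 and 125 CPM in HD-het and 127, 125 and 130.3 CPM in HD-homo libraries. Both HD lines lay below control cells and overlapped each other, with log2 fold changes of -0.38 (SE 0.056, edgeR adjusted p = 0.000122) in HD-het and -0.31 (SE 0.056, edgeR adjusted p = 0.000543) in HD-homo cells.

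Psma3 had the largest decrease in HD-homo cells, from 279.7, 277 and 298 CPM in control libraries to 222, 208 and 217 CPM. In the HD-het libraries it was at 220.3, 219 and 229 CPM. The HD lines again overlapped each other and not the control line, with log2 fold changes of -0.40 (SE 0.053, edgeR adjusted p = 6.11e-05) in HD-homo and -0.35 (SE 0.053, edgeR adjusted p = 0.000133) in HD-het cells. Of its words 22.0% occur in other genes. Psma2 differed from these in the HD-homo line, where it was at 243 ± 3.06 CPM (SD, n = 3) against 232 ± 12.4 CPM in control and 154 ± 10.5 CPM in HD-het cells. It fell in HD-het cells by 0.59 on the log2 scale and did not pass the threshold in HD-homo cells. AW209491 overlaps it on the same strand. The alpha ring sum differed from the control mean by -22.3% in HD-het and -9.45% in HD-homo cells, and no library of either HD line reached the control libraries.

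The 7 beta ring subunits include the catalytic ones, Psmb5 with chymotrypsin-like, Psmb6 with caspase-like and Psmb7 with trypsin-like activity. In HD-het cells 5 of the 7 fell, but of the catalytic subunits only Psmb6 did. Psmb6 was at 158, 161 and 180.4 CPM in control libraries, at 118, 112 and 127 CPM in HD-het libraries and at 186, 184 and 178 CPM in HD-homo libraries. The HD-het libraries lay apart below the others, with a log2 fold change of -0.49 (SE 0.067, edgeR adjusted p = 6.77e-05), while the HD-homo value of 0.13 (SE 0.066, edgeR adjusted p = 0.104) was not past the threshold. Without control replicate 3 the latter was 0.19 (edgeR adjusted p = 0.032).

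Psmb7 showed another pattern, with 196, 196 and 215 CPM in control, 194, 191 and 216 CPM in HD-het and 261, 239 and 269 CPM in HD-homo libraries. Control and HD-het cells overlapped, with a log2 fold change of -0.01, and the HD-homo libraries were all higher (log2 fold change 0.34, SE 0.069, edgeR adjusted p = 0.00133). Nek6 overlaps Psmb7 on the other strand. Psmb5 measured 119, 117 and 134 CPM in control, 131, 115 and 137 CPM in HD-het and 135, 125 and 129.6 CPM in HD-homo libraries. The 3 lines overlapped, and none of the 3 comparisons passed the threshold, with edgeR adjusted p values of 0.415, 0.578 and 0.779. Of the words of Psmb5 57.1% occur in other genes. The promoters of Psmb5 and Psmb6, printed above, both hold an antioxidant response element core, and in HD-het cells Psmb6 fell while Psmb5 did not pass the threshold. Of the other printed genes, Psmd12 fell in HD-het cells (log2 fold change -0.36, edgeR adjusted p = 0.000105), and Psmc6, Psmd9 and Psme4 did not pass the threshold. The part of the motif in these values was not tested.

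Psmb3, a structural subunit on chr11:97703399-97713500, had the largest decrease of the beta ring. Its level was 167, 162 and 185 CPM in control, 107, 99.8 and 113 CPM in HD-het and 188, 171 and 174 CPM in HD-homo libraries. HD-het cells lay apart below the other lines, with a log2 fold change of -0.69 (SE 0.070, edgeR adjusted p = 7.21e-06), and the HD-homo value was 0.05 (edgeR adjusted p = 0.548). Its words are shared to 55.8% with other genes. Psmb2, with no shared words, measured 116, 116 and 119 CPM in control, 99.7, 100 and 111 CPM in HD-het and 136, 135 and 128 CPM in HD-homo libraries. It was below control in HD-het cells (log2 fold change -0.17, SE 0.058, edgeR adjusted p = 0.0207) and above in HD-homo cells (0.18, SE 0.058, edgeR adjusted p = 0.0175). Each call rests on few libraries. The HD-homo call was lost without control replicate 1 or 2 or HD-homo replicate 1, and the HD-het call without control replicate 3 or HD-het replicate 1 or 2, with adjusted p values between 0.0511 and 0.0855.

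Of the immunoproteasome subunits that can replace the catalytic ones, Psmb10, the counterpart of Psmb7, was at 11.3 ± 0.903 CPM in control, 10.5 ± 1.66 CPM in HD-het and 23.3 ± 4.03 CPM in HD-homo cells (SD, n = 3). Psmb8 had 2, 1 and 3 counts in control, 3, 4 and 9 in HD-het and 25, 14 and 61 in HD-homo libraries. Psmb9 did not pass the filter. Its counts were 0, 2 and 1 in control, 4, 3 and 4 in HD-het and 13, 8 and 47 in HD-homo libraries. Both genes were highest in HD-homo replicate 3.

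The 6 ATPases of the 19S base, Psmc1 to Psmc6, were divided in both HD lines. In HD-het cells 3 fell (Psmc1, Psmc4 and Psmc5) and Psmc3 rose, and in HD-homo cells 3 rose (Psmc2, Psmc3 and Psmc5) and 2 fell (Psmc1 and Psmc4). Psmc5 measured 153, 146 and 165 CPM in control, 110.2, 106 and 125 CPM in HD-het and 181, 169 and 183 CPM in HD-homo libraries. HD-het libraries were lowest and HD-homo libraries highest, without overlap. For Psmc5 the log2 fold change was -0.44 (SE 0.073, edgeR adjusted p = 0.000287) in HD-het cells and 0.20 (SE 0.073, edgeR adjusted p = 0.0361) in HD-homo cells. The HD-homo call was lost without control replicate 1 or 2 or HD-homo replicate 1 or 3, with adjusted p values between 0.0882 and 0.142. Psmc6, whose promoter holds an antioxidant response element core, was at 157 ± 4.22, 159 ± 13 and 162 ± 7.95 CPM (SD, n = 3, in the same order of lines) and passed no test.

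The other base subunits among these genes, the scaffolds Psmd1 and Psmd2 and the ubiquitin receptor Psmd4, fell in HD-het cells by 0.22, 0.30 and 0.43 on the log2 scale. In HD-homo cells 0 of the 3 passed the threshold. Their summed level differed from control by -18.3% in HD-het cells, with 966, 928 and 1031 CPM against 1184, 1163 and 1233 CPM in control libraries. The HD-homo libraries, at 1174, 1153 and 1145 CPM, overlapped the control libraries. Of the 50-base words, 26.4% of Psmd2 and 8.36% of Psmd1 occur in other genes, so their counts are less certain.

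The 8 lid subunits among these genes, which include the deubiquitinase Psmd14, also moved in both directions. In HD-het cells 5 fell (Psmd3, Psmd6, Psmd7, Psmd11 and Psmd12) and Psmd8 and Psmd13 rose. In HD-homo cells 4 rose (Psmd7, Psmd11, Psmd13 and Psmd14) and Psmd8 fell. Psmd7, the partner of Psmd14, lies on chr8:107580381-107588464. Its level was 215, 214 and 229 CPM in control, 164, 157 and 185 CPM in HD-het and 280.0, 252 and 336 CPM in HD-homo libraries. No libraries of different lines overlapped, although HD-homo replicate 3 was well above the other HD-homo libraries. Psmd7 had a log2 fold change of -0.38 (SE 0.099, edgeR adjusted p = 0.00552) in HD-het and 0.40 (SE 0.099, edgeR adjusted p = 0.00483) in HD-homo cells.

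Psmd8, on chr7:29174188-29180701, had the opposite pattern and was the only proteasome gene past the threshold that was lower in HD-homo cells when the HD lines were compared. It was at 157, 157 and 165 CPM in control, 176, 172 and 189.9 CPM in HD-het and 138, 132 and 139.7 CPM in HD-homo libraries. The 3 lines did not overlap, with HD-het highest. Psmd8 changed by a log2 fold change of 0.17 (SE 0.056, edgeR adjusted p = 0.0217) in HD-het and -0.23 (SE 0.056, edgeR adjusted p = 0.00473) in HD-homo cells. The HD-het call was lost without control replicate 1 or 2 or HD-het replicate 3, with adjusted p values between 0.0764 and 0.0822.

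Psmd11, which holds an ETS core as printed, measured 179, 177 and 190.2 CPM in control, 149.6, 144 and 144 CPM in HD-het and 198, 206 and 204 CPM in HD-homo libraries. HD-het libraries were again lowest and HD-homo libraries highest, without overlap. It changed by a log2 fold change of -0.32 (SE 0.051, edgeR adjusted p = 0.000198) in HD-het and 0.15 (SE 0.051, edgeR adjusted p = 0.0237) in HD-homo cells, and the HD-homo call was lost without control replicate 1 or 2 or HD-homo replicate 2 or 3, with adjusted p values between 0.0515 and 0.0989. Psmd13 was above control in both HD lines, at 102, 95.5 and 111 CPM in control, 128, 123 and 131 CPM in HD-het and 125, 121 and 123 CPM in HD-homo libraries. Both HD lines lay above the control libraries and overlapped each other. Its log2 fold change of 0.31 (SE 0.062, edgeR adjusted p = 0.00106) was among the 3 largest increases in HD-het cells, and it was 0.26 (SE 0.062, edgeR adjusted p = 0.00423) in HD-homo cells. Psmd13 overlaps Sirt3 on the other strand. Psmd3 fell by 0.60 on the log2 scale in HD-het cells, from 298 ± 5.33 to 197 ± 12.4 CPM (SD, n = 3), the largest decrease of the lid, and was at 287 ± 15.3 CPM in HD-homo cells.

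**Figure D4:**
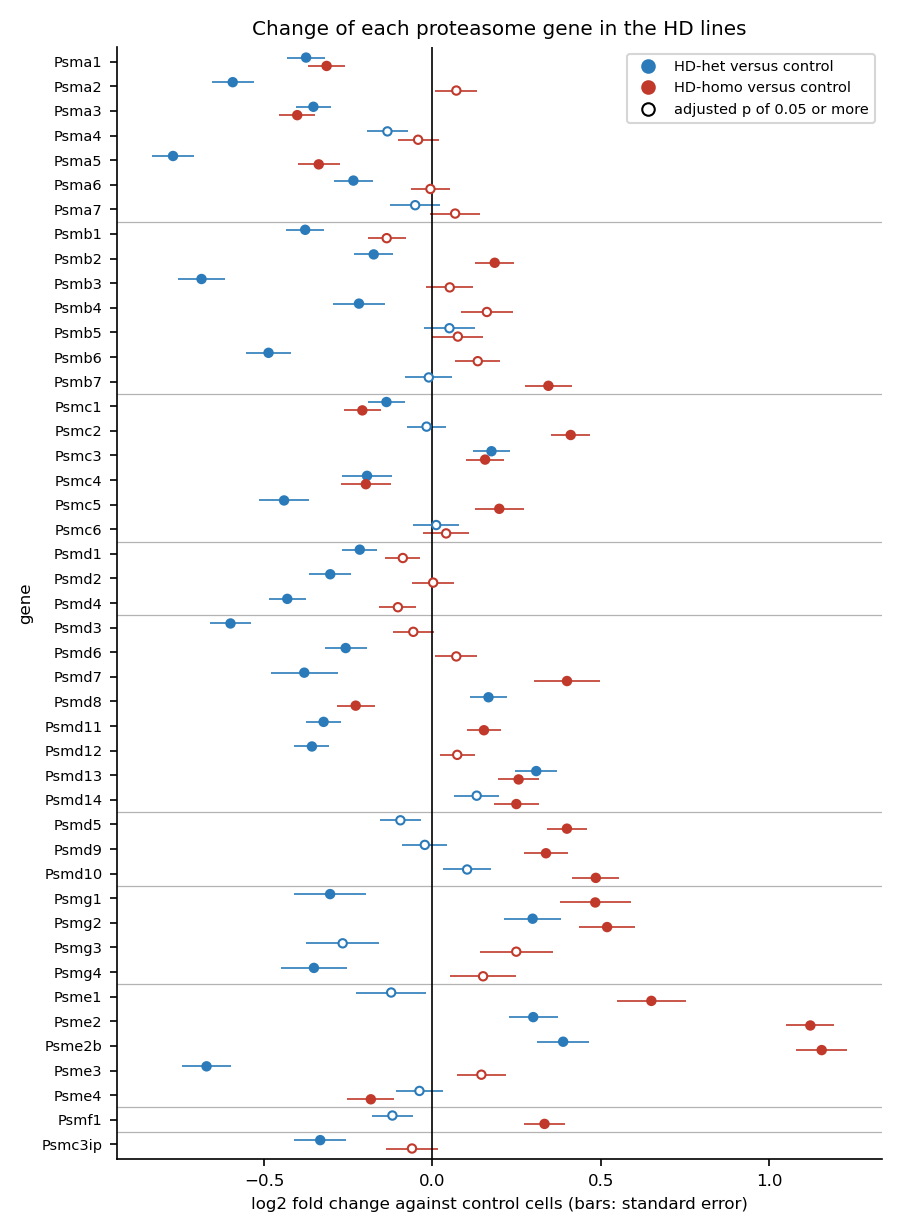
Log2 fold change against control cells (x axis) of 45 proteasome genes (y axis, by role) in HD-het (blue) and HD-homo cells (red), with bars for the standard error from edgeR and open circles where the adjusted p was 0.05 or more. Psma5 lies farthest to the left at -0.77 in HD-het cells and Psme2b farthest to the right at 1.16 in HD-homo cells.

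The assembly chaperones, which build the particles and are not part of the finished proteasome, were higher in HD-homo cells. All 3 chaperones of the 19S base, Psmd5, Psmd9 and Psmd10 (gankyrin), rose in HD-homo cells, by log2 fold changes of 0.40, 0.34 and 0.48, and 0 of the 3 passed the threshold in HD-het cells. Their summed level was 165, 167 and 177 CPM in control, 162, 160.1 and 169 CPM in HD-het and 230.2, 214 and 225 CPM in HD-homo libraries. The HD-homo libraries lay above all others, 31.3% over the control mean, and control and HD-het libraries overlapped. The 4 chaperones of the 20S core, Psmg1 to Psmg4, gave 81.7, 77.8 and 86.4 CPM in control, 74.0, 69.4 and 85.5 CPM in HD-het and 108, 100.7 and 114 CPM in HD-homo libraries. The HD-homo sum was 30.9% over the control mean without overlap. Psmg1 and Psmg2 rose in HD-homo cells, and Psmg3 and Psmg4 did not pass the threshold there.

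Psmg1 and Psmg2 together encode the dimer that starts the alpha ring, but their mRNAs parted in HD-het cells. Psmg1, on chr16:95979933-95990960, was at 25.6, 22.8 and 27.4 CPM in control, 18.9, 18.6 and 23.8 CPM in HD-het and 35.1, 33.4 and 37.4 CPM in HD-homo libraries. HD-homo cells were highest without overlap, while HD-het replicate 3 lay within the control range. Psmg1 had a log2 fold change of -0.30 (SE 0.107, edgeR adjusted p = 0.0265) in HD-het and 0.48 (SE 0.105, edgeR adjusted p = 0.00218) in HD-homo cells, and the HD-het call was lost without control replicate 1 or 3 or HD-het replicate 1 or 2, with adjusted p values between 0.068 and 0.103. Psmg2 was at 23.98, 23.25 and 24.04 CPM in control, 29.2, 26.8 and 31.7 CPM in HD-het and 32.3, 32.3 and 37.5 CPM in HD-homo libraries. The 3 lines did not overlap, and the log2 fold change was 0.30 (SE 0.084, edgeR adjusted p = 0.00885) in HD-het and 0.52 (SE 0.084, edgeR adjusted p = 0.000278) in HD-homo cells.

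The activators bind the core in place of the 19S particle. Psme1 and Psme2 encode the PA28 alpha and beta subunits, which interferon induces and which serve antigen processing, and with Psme2b they showed the largest rises of all proteasome genes in HD-homo cells. Psme2 (chr14:55587441-55591113) was at 12.9, 13.4 and 14.4 CPM in control, 16.4, 16.9 and 16.8 CPM in HD-het and 30.6, 29.8 and 28.1 CPM in HD-homo libraries. Levels were separate in the 3 lines and were higher from control to HD-het to HD-homo. Its log2 fold change was 0.30 (SE 0.072, edgeR adjusted p = 0.0035) in HD-het and 1.12 (SE 0.071, edgeR adjusted p = 1.4e-07) in HD-homo cells, a 2.18-fold difference. Psme2b, a copy of Psme2 with 1 exon on chr11:48945354-48946190, gave almost the same values, with 11.6 ± 0.726 CPM in control, 15.2 ± 0.154 CPM in HD-het and 25.9 ± 1.37 CPM in HD-homo cells (SD, n = 3). Of the 50-base words, 59.3% of Psme2 and 69.3% of Psme2b occur in another gene, so reads of the pair cannot be fully told apart and the share of each gene is uncertain.

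Psme1 (chr14:55578123-55581529) lies close to Psme2, is overlapped by Emc9 on the other strand and shares 14.1% of its 50-base words with other genes. It measured 18.85, 17.8 and 23.1 CPM in control, 19.85, 17.5 and 17.4 CPM in HD-het and 31.5, 33.0 and 29.1 CPM in HD-homo libraries. Control and HD-het cells overlapped, and the HD-homo libraries were all higher. For Psme1 the log2 fold change was 0.65 (SE 0.102, edgeR adjusted p = 0.00023) in HD-homo cells and -0.12 (SE 0.104, edgeR adjusted p = 0.318) in HD-het cells. Between the HD lines it was 0.77 for Psme1 and 0.82 for Psme2 (edgeR adjusted p = 3.82e-05 and 1.06e-06).

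Psme3 encodes PA28 gamma, the nuclear activator, and changed in the other HD line. It was at 245, 246 and 240.1 CPM in control, 153, 143 and 164 CPM in HD-het and 285, 242 and 282 CPM in HD-homo libraries. HD-het cells lay far below both other lines, while HD-homo replicate 2 lay within the control range. The log2 fold change was -0.67 (SE 0.073, edgeR adjusted p = 1.22e-05) in HD-het and 0.15 (SE 0.073, edgeR adjusted p = 0.108) in HD-homo cells. Without HD-homo replicate 2 the latter was 0.22 (edgeR adjusted p = 0.0124). Psme3 has no shared words and no overlapping gene.

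Psme4 encodes PA200, a large activator linked to acetylated histones. Its level was 159.8, 169 and 156 CPM in control, 156, 170.2 and 146 CPM in HD-het and 139, 152 and 136 CPM in HD-homo libraries. The lines lay close together, and HD-homo cells were below control cells by a narrow margin (log2 fold change -0.18, SE 0.070, edgeR adjusted p = 0.0417). That call was lost without control replicate 1 or 2, without HD-homo replicate 1 or 3 and with library totals in place of TMM, with adjusted p values between 0.0762 and 0.149. HD-homo against HD-het cells, not past the threshold for Psme4 (log2 fold change -0.14, edgeR adjusted p = 0.0839), passed it without HD-het replicate 3 or HD-homo replicate 2, with adjusted p values of 0.0266 and 0.0335, and with a block on replicate number (edgeR adjusted p = 0.0141). Psmf1, which encodes PI31, an inhibitor of the core in the test tube, was at 44.4, 43.4 and 43.95 CPM in control, 39.0, 39.3 and 43.0 CPM in HD-het and 57.7, 53.1 and 55.2 CPM in HD-homo libraries. The HD-homo libraries were all higher, with a log2 fold change of 0.33 (SE 0.062, edgeR adjusted p = 0.000745), and the HD-het value was -0.12 (SE 0.062, edgeR adjusted p = 0.112), which became -0.17 (edgeR adjusted p = 0.0408) without HD-het replicate 3.

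**Figure D5:**
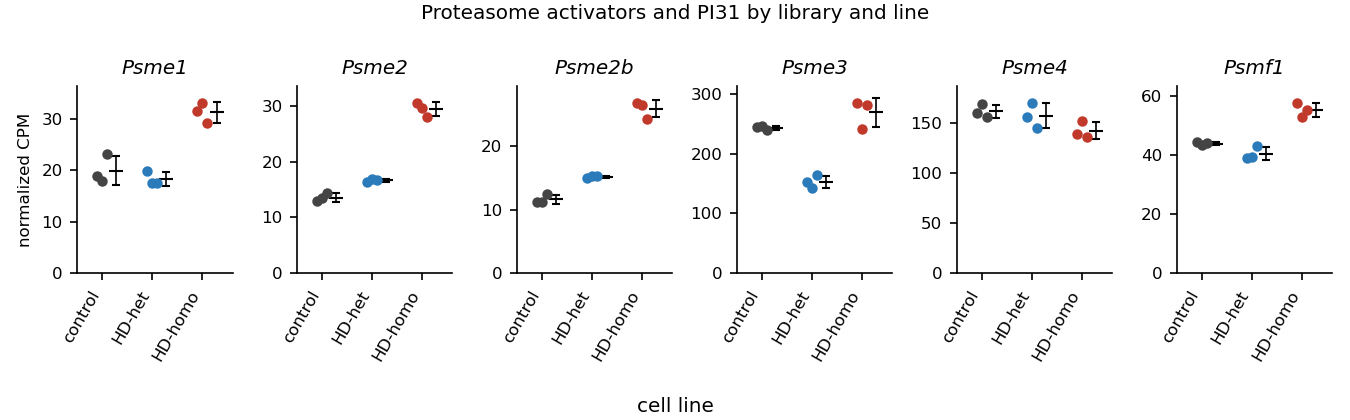
Normalized CPM (y axis, from 0) of 5 activator genes and Psmf1 in the 3 lines, with a point for each library and the mean ± SD of 3 libraries beside the points. The HD-homo libraries lie above all others for Psme1, Psme2, Psme2b and Psmf1, and the HD-het libraries lie below all others for Psme3.

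Psmb11, the core subunit of thymic epithelium, had between 7 and 18 counts per library, and no comparison passed the threshold. Psmc3ip fell in HD-het cells, from 25.1 ± 0.811 to 19.9 ± 1.68 CPM (SD, n = 3), with a log2 fold change of -0.33 (SE 0.078, edgeR adjusted p = 0.00293), and was at 24.1 ± 1.16 CPM in HD-homo cells.

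Per kilobase of transcript, the 14 core subunits lay within a narrow range of levels in each line. In control cells they ran from 79.6 CPM per kilobase for Psma2 to 223 for Psmb3, a 2.8-fold range, in HD-het cells from 52.8 for Psma2 to 176 for Psma7 (3.33-fold), and in HD-homo cells from 73.0 for Psmb1 to 232 for Psmb3 (3.18-fold). The 17 subunits of the 19S particle ran from 51.7 for Psmd13 to 202 for Psmd2 in control cells, a 3.91-fold range, and over 3.20-fold in HD-het and 3.27-fold in HD-homo cells. The chaperones, activators and Psmf1 were lower per length than every 26S subunit, with the exception of Psme3 at 91.5, 57.5 and 101 CPM per kilobase in the order control, HD-het, HD-homo. In control cells the others lay between 11.5 for Psmf1 and 26.8 for Psmg4. These levels rest on 1 transcript per gene, and Psma2 has a long one of 2911 nucleotides.

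Of 29 further genes that assemble, feed or regulate the proteasome, 28 were tested. In HD-het cells 12 fell (42.9%) and 4 rose (14.3%), against 31.4% and 33.8% of all tested genes, with a median of -0.12 on the log2 scale. HD-homo cells had 9 that fell (32.1%) and 6 that rose (21.4%), against 28.9% and 29.6%, with a median of 0.0035. Between the HD lines 11 were higher (39.3%) and 5 lower (17.9%) in HD-homo cells, against 36% and 35.6%, with a median of 0.077. The 19S subunits Adrm1 and Sem1 are in this list. Adrm1 was at 139 ± 6.15, 129 ± 10.4 and 152 ± 8.43 CPM in control, HD-het and then HD-homo cells (SD, n = 3) and did not pass the threshold against control cells in either HD line. Sem1 was at 94.1 ± 8.05, 105 ± 4.12 and 111 ± 3.79 CPM and rose in HD-homo cells (log2 fold change 0.23, edgeR adjusted p = 0.0116). Nfe2l1, the transcription factor introduced above, rose in HD-het cells, where most of the called proteasome genes fell. It was at 294, 286 and 289 CPM in control, 440.1, 402 and 389 CPM in HD-het and 258, 258 and 258 CPM in HD-homo libraries. The 3 lines did not overlap, with HD-het highest. The log2 fold change was 0.50 (SE 0.056, edgeR adjusted p = 1.4e-05) in HD-het and -0.17 (SE 0.056, edgeR adjusted p = 0.0252) in HD-homo cells, and the HD-homo call was lost without any 1 control replicate or without HD-homo replicate 1, with adjusted p values between 0.0545 and 0.0857. The activity of Nfe2l1 is known to be set largely by cleavage and degradation of its protein, which these counts do not measure. Nfe2l2, also in the list, was at 86.8 ± 0.527 CPM in control, 124 ± 10.5 CPM in HD-het and 81.5 ± 4.77 CPM in HD-homo cells (SD, n = 3). It too rose in HD-het cells (log2 fold change 0.51, edgeR adjusted p = 6.35e-05) and did not pass the threshold in HD-homo cells (-0.09, edgeR adjusted p = 0.291). Ngly1, the glycanase that processes Nfe2l1, was at 13.5 ± 0.899 CPM in control, 19.9 ± 1.23 CPM in HD-het and 18.9 ± 2.72 CPM in HD-homo cells (SD, n = 3), with log2 fold changes of 0.56 and 0.48 (edgeR adjusted p = 0.000758 and 0.00249), the largest rises of the list.

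Pomp, the maturation factor of the beta ring, was at 73.5, 76.4 and 83.7 CPM in control, 60.4, 55.3 and 65.4 CPM in HD-het and 89.2, 84.1 and 78.4 CPM in HD-homo libraries. HD-het cells lay below the other lines (log2 fold change -0.37, SE 0.078, edgeR adjusted p = 0.00163), and control and HD-homo cells overlapped. The shuttle factors Ubqln2 and Ubqln4, which carry ubiquitinated proteins to the proteasome, had the largest decreases of the list against control cells. Ubqln2 fell from 113 ± 1.89 CPM to 86.2 ± 2.81 in HD-het and 71.5 ± 2.56 in HD-homo cells, by 0.39 and 0.66 on the log2 scale (edgeR adjusted p = 5.8e-05 and 9.95e-07). Ubqln4 fell from 177 ± 2.51 CPM to 101 ± 9.16 in HD-het and 148 ± 12.3 in HD-homo cells (SD, n = 3), by 0.81 and 0.25 on the log2 scale (edgeR adjusted p = 4.41e-06 and 0.0141). Rps27a, a fusion of ubiquitin and a ribosomal protein, had the largest positive log2 fold change of the list between the HD lines, 0.64 (edgeR adjusted p = 3.38e-05). It was at 229 ± 20.5 CPM in control, 161 ± 14.4 CPM in HD-het and 250.3 ± 14.9 CPM in HD-homo cells (SD, n = 3). Against control cells Rps27a fell in the HD-het line (log2 fold change -0.51, edgeR adjusted p = 0.000242). The HD-homo value against control, 0.13, was not past the threshold (edgeR adjusted p = 0.21).

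The lines also differed in genes of fibroblasts and mural cells. The summed level of Col1a1, Col1a2, Acta2 and Pdgfrb, all 4 of which were tested, was between 4250 and 5290 CPM in control, 11600 and 13800 CPM in HD-het and 5670 and 6280 CPM in HD-homo libraries. Col1a1 and Acta2 carried this sum in control and HD-het cells, and Col1a1 and Col1a2 carried it in HD-homo cells. The sum was highest in the line with the lowest proteasome sums, and the 4 genes did not move together. Col1a1 was at 2465, 7097 and 4234 CPM in the mean of control, HD-het and HD-homo libraries, and Pdgfrb at 92.7, 362 and 146 CPM, highest in HD-het cells. Col1a2 was lowest there, at 73.4, 3.15 and 1494 CPM, and Acta2 was lowest in HD-homo cells, at 2271, 5290 and 91.8 CPM. The part of these genes in the results was not tested. Astrocyte markers summed to at most 0.406 CPM and microglial markers to at most 0.622 CPM in any library. A floor of 3 counts corresponds to between 0.0710 and 0.101 CPM and covers counting error only.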

How the data were processed

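Poly(A) RNA was made into directional libraries (NEBNext Ultra II) from 3 lines with 3 libraries each. The authors deposited raw read counts per gene symbol, without normalization, in 9 columns, 1 for each library. The submitters' processing notes name cutadapt, Bowtie 1.1.2, RSEM 1.3.0, DESeq2 and the builds GRCm38.p5 and mm10. The annotation and the strand setting of the counting are not given in the sources used here, so that genes with overlapping or near-identical copies have uncertain counts.

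The tests used edgeR 4.0.16 under R 4.3.3. The low-count filter was filterByExpr (minimum count 10) and the scaling TMM (factors between 0.984 and 1.03). All 9 libraries entered 1 quasi-likelihood fit with a mean for each line. P values were adjusted over all 13508 genes within each comparison. Depth was between 29507665 and 41197931 counts per library. With 3 libraries against 3, an exact permutation test cannot give p below 0.1 and was not used. The pipeline was also run on simulated data, in which far fewer genes were changed than were called here. No result given here rests on that run.

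Genes were named by rule: the 3 largest increases and decreases of each comparison, the catalytic subunits, the activators and Psmf1, genes that failed the filter, genes changed in opposite directions in the HD lines and, of the pathway list, Nfe2l1, Pomp and the extremes. Adrm1, Nfe2l2, Sem1, Psma2, Psmb10, Psmc3ip, Psmc6, Psmd3, Psmg2 and other genes mentioned as group members were added with their values known. The genes, lists and rules were chosen with earlier results of these data known. Positions and transcript lengths came from GENCODE on GRCm38 and promoters from RefSeq. Alternatives were DESeq2 1.42.0 and its size factors, library totals, other filters, pairs of lines alone, a block on replicate number and leaving out each library.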

Additional observations from a re-analysis of the deposited data

Results flagged for a closer look

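The 6 genes named here passed the threshold against control cells in opposite directions in the HD lines, which held for 13% of the 46 tested proteasome genes and for 14.5% of all tested genes. Opposite effects against the same control libraries fix a difference between the HD lines, so the values that follow describe its size and no test is drawn from them. HD-homo minus HD-het, on the log2 scale, was 0.36 for Psmb2, 0.64 for Psmc5, 0.48 for Psmd11, 0.78 for Psmd7, -0.39 for Psmd8 and 0.79 for Psmg1. Of these genes only Psmd7 kept both calls against control cells when each library was left out in turn.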

How the results depend on the processing

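The counts of proteasome genes higher or lower stayed within 1.5 times under each alternative, except the single gene lower in HD-homo cells when the HD lines were compared. That count was 2 with a block on replicate number, and between 1 and 2 when each library was left out, with 2 without HD-het replicate 3 and 2 without HD-homo replicate 2. The other counts with a library left out were 14 to 21 higher and 5 to 6 lower for HD-homo against control, 4 to 6 higher and 20 to 27 lower for HD-het against control, and 30 to 33 higher between the HD lines. Same-numbered libraries deviated together with r between 0.0255 and 0.292 across genes, and not every pair passed 0.1. These values do not settle whether the numbers pair the libraries, and the main fit used no block. With the block, 20 genes were higher and 8 lower for HD-homo against control, 6 and 27 for HD-het against control, and 32 and 2 between the HD lines.

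Of 78 results for 26 named genes 61 passed the threshold, and 53 of these kept their call under every alternative. Among 1014 alternative values, 970 kept direction and call, 30 lost and 6 gained a call, and 8 changed sign, none of a result past the threshold. In HD-het against control cells the sign changes were Psmb5 at -0.00244 (range with a library left out -0.00244 to 0.120) and Psme4 at 0.0146 (-0.0968 to 0.0146) without HD-het replicate 3, and Psmb7 at 0.0339, 0.0132 and 0.0227 without control replicate 3, HD-het replicate 1 and HD-het replicate 2 (-0.0678 to 0.0339). Between the HD lines they were Ngly1 at 0.00236 (-0.200 to 0.00236) and Psmb5 at -0.00357 without HD-homo replicate 1, and Psmb5 at -0.0461 without HD-het replicate 2 (-0.0461 to 0.0772). The cause was not tested. Psma8 and Psmb11 had the lowest counts of the proteasome genes, at most 1 and 18 in any library. The effect of depth on the calls was not tested.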
